A study of Phelipanche ramosa with 8 samples.

Results

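The *FQR1* contigs of the broomrape *Phelipanche ramosa* are the 3 assembled transcripts Pram_30975, Pram_29053 and Pram_47965, which the annotation of the study's hormone gene sheet names flavodoxin-like quinone reductase 1. They were found by their contig names among the 52543 sense probes of a microarray built on the *P. ramosa* transcriptome. Each has a partner probe on the opposite strand, among the 52543 antisense probes, so that 6 probes are described. The contigs were chosen from a list that was itself drawn up on responses at this time point or at a later one of the same study, which is not analysed here. Their ratios of exudate to control are therefore a description, and the calls given for them below are not read as a test.

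*P. ramosa* is a holoparasitic plant without photosynthesis of its own, and *Brassica napus* (oilseed rape) is one of its hosts. The question was which transcripts change before the seedling's root tip visibly forms the early haustorium, the organ of attachment, in response to host root exudates. Both groups were wild-type germinated seeds, conditioned in the dark and then kept for 4 days with the synthetic germination stimulant GR24. The control group then received incubation medium for 12 h and the exudate group *B. napus* root exudates for 12 h, called crude in one description of the samples and diluted by an equal volume in another.

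There were 4 samples per group. The 2 samples of a replicate number were hybridised together in different dyes, which gave 4 arrays on 1 slide. Control was in Cy5 on arrays 1 and 2 and in Cy3 on arrays 3 and 4. The sample labels speak of 4 replicates grown apart and the methods of 2 biological replicates with switched dyes, so that the spread between arrays may be partly technical. RNA came from whole germinated seeds in bulk, so that a change in the number of cells that express a gene and a change in RNA per cell cannot be told apart.

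FQR1 of *Arabidopsis thaliana* is a small flavoprotein that carries FMN and passes electrons from NADH or NADPH to quinones, giving hydroquinones without releasing the reactive semiquinone. Its transcript is known in *Arabidopsis* as one that auxin raises quickly. In hemiparasitic relatives of the broomrapes, such as *Triphysaria* and *Striga*, benzoquinones from the host root set off haustorium formation, and quinone reductases of *Triphysaria* have been studied in that response. In *P. ramosa* itself the study saw no early haustoria after treatment with the benzoquinone DMBQ. The role of the *P. ramosa* proteins rests here on the annotation alone.

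All 3 *FQR1* contigs gave more signal with exudate than with control on each of the 4 arrays, and so did all 3 antisense partners. Higher on all 4 arrays were 10.7% of the sense and 31.3% of the antisense probes tested over the whole array. The mean exudate over control ratio was 6.11-fold for Pram_30975, 5.89-fold for Pram_29053 and 5.49-fold for Pram_47965 on the sense strand. On the antisense strand it was 4.31-fold, 5.69-fold and 6.25-fold in the same order. The mean sense ratios of the 3 contigs differed by at most 0.15 on the log2 scale after loess, and by up to 0.58 with the scanner's own processed signal.

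The signals themselves are given first, as the median intensity of a spot minus its local background, averaged over the spots of a probe, in the scanner's arbitrary units. For Pram_30975, control samples on arrays 1 to 4 gave 363, 317, 99 and 290. The exudate samples on the same arrays gave 2192, 1820, 196 and 2600. Array 3 was the lowest in both groups, and its exudate sample lay below 3 of the 4 control samples, so that the raw signals of the groups overlapped although exudate was higher within each array.

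Pram_29053 showed the same order. Its control signals were 1592, 2104, 536 and 2234 and its exudate signals 10026, 12563, 791 and 10804. Here too the exudate sample of array 3 was above its own control and below the control samples of the 3 other arrays.

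For Pram_47965, control signals were 8218, 10082, 3100 and 9196. Its exudate signals were 43814, 53570, 5348 and 46347. The exudate sample of array 3 again fell among the controls of the other arrays, while the 3 other exudate samples were far above every control sample. A probe's brightness depends on its own sequence, so that the contigs are not ranked by these levels.

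On the antisense strand the groups did not overlap even in raw signal. The antisense probe of Pram_30975 gave 296, 283, 288 and 315 in control and 1563, 1318, 385 and 1001 with exudate. That of Pram_29053 gave 2563, 3056, 3285 and 4535 in control and 13307, 22000, 9534 and 11529 with exudate. That of Pram_47965 gave 196, 308, 662 and 428 in control and 1505, 1934, 1644 and 1740 with exudate. The lowest exudate sample was on array 3 for the first pair of antisense probes and on array 1 for that of Pram_47965, whose highest control sample was on array 3. Of all antisense probes tested, 1.48% had raw signals without overlap in this direction, and 0.307% of the sense probes did.

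**Figure D1:**
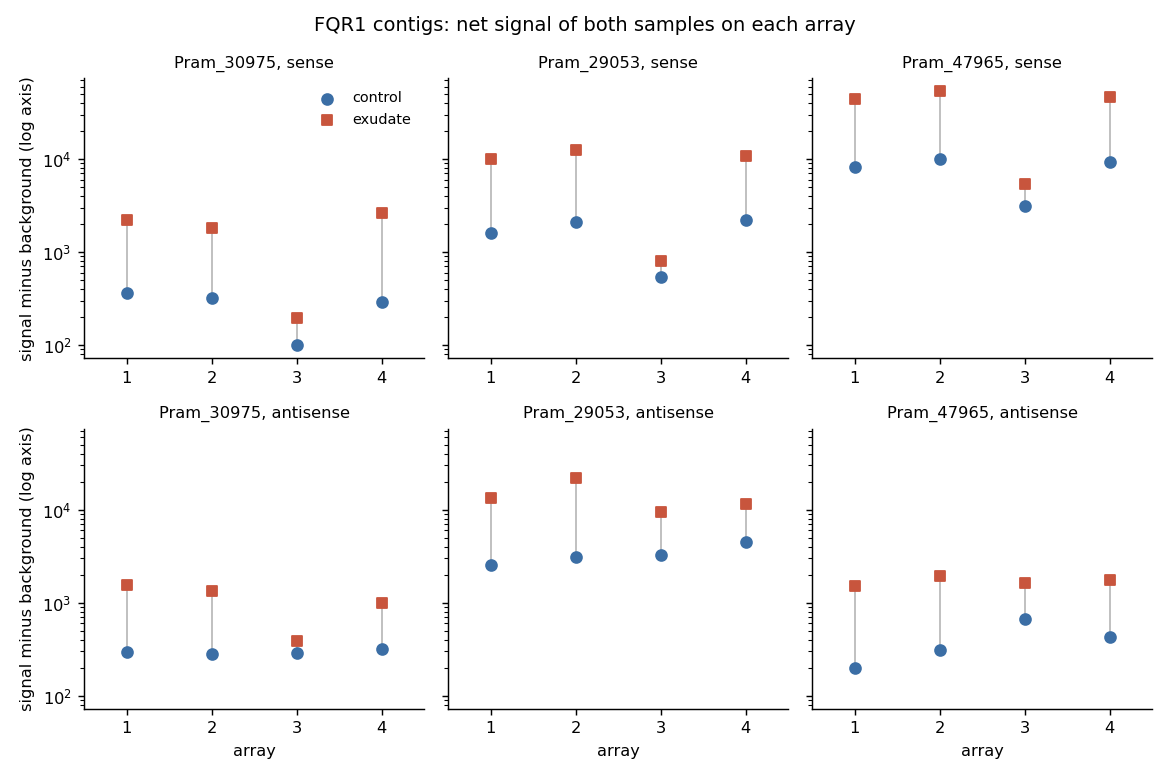
Signal minus local background (log axis, scanner units) of the control sample (circles) and the exudate sample (squares) on each of the 4 arrays, for the sense probe (top) and antisense probe (bottom) of each contig. A line joins the samples that shared an array, and the sense probes drop on array 3 in both samples, with exudate at 196, 791 and 5348 there.

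These values rest on spots that the scanner software accepted. The 6 probes cover 10 spots, 2 for each sense probe and for the antisense probe of Pram_30975 and 1 for each of the other antisense probes. Over the 4 arrays and both dyes that made 80 spot readings, of which 80 were well above background by the software's test, 0 were saturated and 0 were signal outliers. In 1 of them the background was flagged as an outlier. The brightest reading, 59101, was 90.2% of the saturation value, and the dimmest was 132.

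Where a probe had 2 spots, their log2 ratios on one array differed by 0 to 0.18 for the sense probes and by 0.01 to 0.34 for the antisense probe of Pram_30975. The median difference over all sense probes was 0.11 to 0.15 by array, and its 95th percentile 0.36 to 0.52. Each of these differences was smaller than the range of the same probe between arrays, given next.

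After loess normalization, which removes the part of the ratio that depends on brightness within an array, the log2 ratios (exudate over control) of Pram_30975 on arrays 1 to 4 were 2.70, 2.07, 1.95 and 3.72, which averaged 2.61 ± 0.81 (SD, n = 4 arrays). Those of Pram_29053 were 2.90, 2.27, 2.15 and 2.92, with a mean of 2.56 ± 0.41 (SD, n = 4). Those of Pram_47965 were 2.65, 2.12, 2.20 and 2.85, with a mean of 2.46 ± 0.35 (SD, n = 4). In this setting array 4 gave the highest ratio in all 3 contigs, though nearly level with array 1 for Pram_29053, and arrays 1 and 4 lay above arrays 2 and 3. The order depended on the processing. With the scanner's processed signal array 1 was highest for Pram_29053 (3.04 against 2.99 on array 4). Array 3 of Pram_30975 (2.99) was then level with array 1 (2.98). The mean of the 3 contigs was 2.75, 2.15, 2.10 and 3.16 by array.

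The value of 3.72 for Pram_30975 on array 4 stood apart from its 3 other arrays, and it sets the SD of this contig. Over all sense probes tested the median SD between arrays was 0.38, and 3.71% of probes had a larger SD than Pram_30975. For Pram_29053 and Pram_47965 these shares were 44.7% and 56.3%, so that both varied between arrays about as much as an ordinary probe.

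On the antisense strand the log2 ratios of Pram_30975 were 2.47, 1.76, 1.91 and 2.29, with a mean of 2.11 ± 0.33 (SD, n = 4). Those of Pram_29053 were 2.64, 2.54, 2.88 and 1.97, with a mean of 2.51 ± 0.38 (SD, n = 4). Those of Pram_47965 were 2.86, 2.19, 2.86 and 2.66, with a mean of 2.64 ± 0.32 (SD, n = 4). The antisense probe of Pram_30975 had arrays 1 and 4 above arrays 2 and 3, as the sense probes did. The antisense probes of the other contigs did not follow this order: array 4 was the lowest for Pram_29053, and array 3 was level with array 1 as the highest for Pram_47965.

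**Figure D2:**
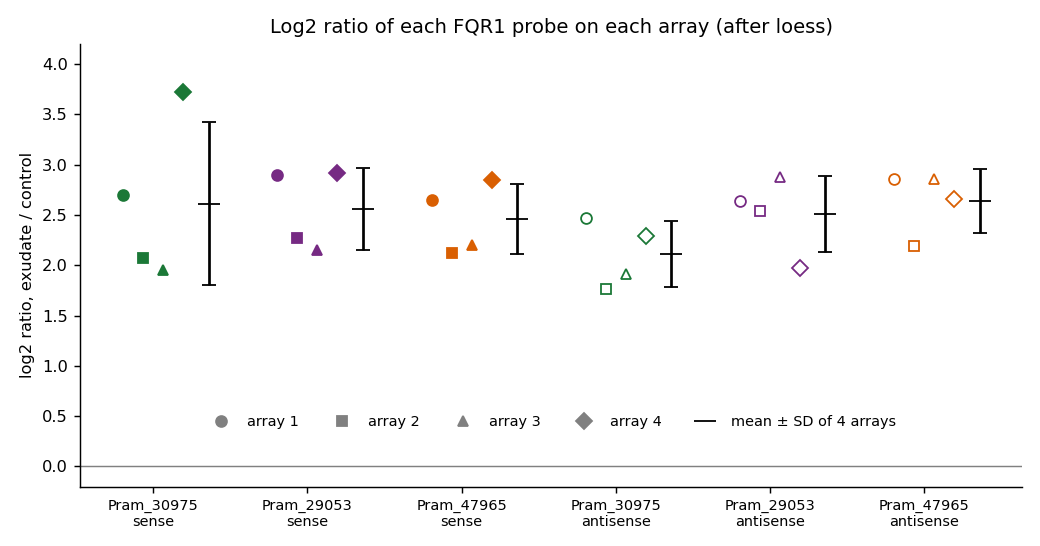
Log2 ratio of exudate over control for each probe on each array (symbols, filled for sense and open for antisense), with the mean and SD over 4 arrays in black. All 24 values lie between 1.76 and 3.72, and the highest is Pram_30975 on array 4.

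With limma across all probes, 3 of the 3 sense contigs and 3 of the 3 antisense partners passed an adjusted p of 0.05 together with a ratio of at least 1.5-fold. The background was 5.12% of the 30641 sense probes tested and 8.34% of the 16084 antisense probes tested. In either direction the calls were 17.9% of sense and 8.52% of antisense probes. Because this contrast was among those the list was made on, nothing is read from these counts. Called lower, at a ratio of 0.75 or less, were 12.8% of sense probes and 0.18% of antisense probes. The call of 5491 sense probes in both directions depended on single arrays, with 677 without replicate 1, 3337 without replicate 3 and 2798 without replicate 4. For antisense probes it was 1370, with 249 without replicate 1 and 740 without replicate 3. The *FQR1* probes were called in each of these fits, which their choice on this contrast favours, so that this is not support. The higher calls were 28.6% of all sense calls, against 8.36% when arrays were only centred on their median and 47.8% when loess was run per strand, and for antisense probes 97.9% against 77.9% with loess per strand.

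By mean ratio, Pram_30975 was at rank 35, Pram_29053 at rank 36 and Pram_47965 at rank 44 among the 30641 sense probes. Their ranks on single arrays ran from 18, for Pram_30975 on array 4, to 108, for the same contig on array 3. Among antisense probes the ranks by mean were 77 for Pram_30975, 30 for Pram_29053 and 22 for Pram_47965. Normalized signals of single channels lay higher in every exudate sample than in any control sample for all 6 probes. The same, in this direction, held for 4.57% of all sense and 15.5% of all antisense probes tested.

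**Figure D3:**
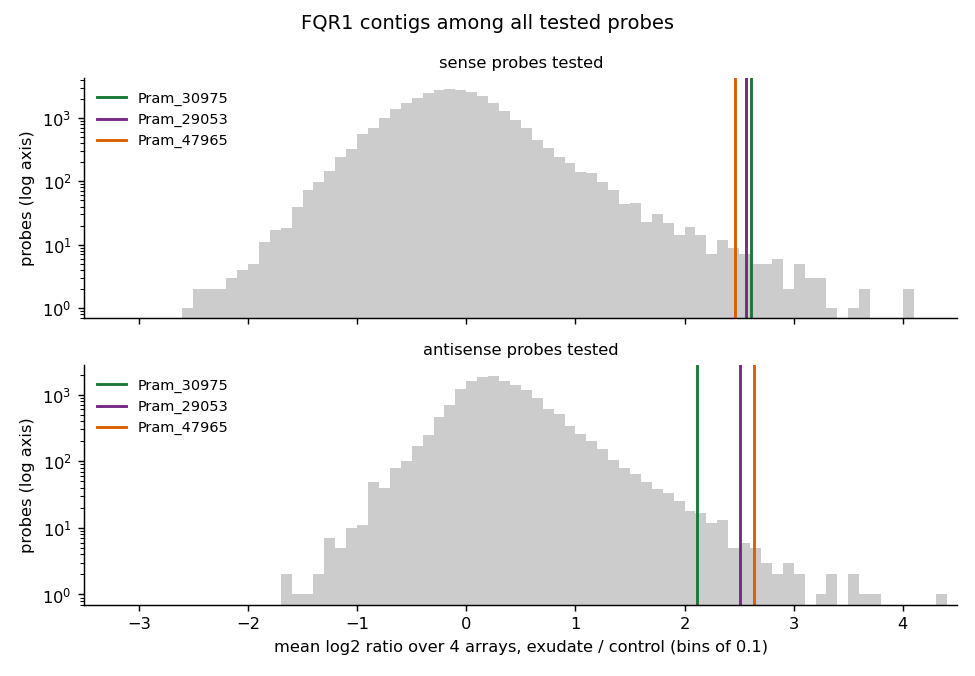
Number of tested probes (log axis) by mean log2 ratio of exudate over control, for 30641 sense probes (top) and 16084 antisense probes (bottom), with the contigs as vertical lines. The lines at 2.61, 2.56 and 2.46 (sense) and at 2.11, 2.51 and 2.64 (antisense) lie in the upper tail of both distributions.

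The contigs were then compared pairwise, array by array, with an exact two-sided sign-flip test over the 4 arrays. The smallest exact p that 4 arrays allow is 0.13, so that sizes and ranges are more informative than p. Pram_30975 minus Pram_29053 was -0.20, -0.19, -0.20 and 0.80 on the log2 scale, a mean of 0.05 ± 0.50 (SD, n = 4, exact p = 1, adjusted over the 3 pairs p = 1). The sign of this mean rests on array 4, and without it the mean was -0.19. Pram_30975 minus Pram_47965 was 0.05, -0.05, -0.25 and 0.87, a mean of 0.15 ± 0.49 (SD, n = 4, exact p = 0.75, adjusted p = 1) that turned to -0.08 without array 4. Pram_29053 minus Pram_47965 was 0.25, 0.14, -0.05 and 0.07, a mean of 0.10 ± 0.13 (SD, n = 4, exact p = 0.25, adjusted p = 0.75). The scanner's own processed signal was also used, in place of both the background correction and the loess of the main setting. With it, Pram_30975 minus Pram_47965 was 0.32, 0.18, 0.68 and 1.16, a mean of 0.58 ± 0.44 (SD, n = 4), positive on all 4 arrays and at the smallest exact p (0.13, adjusted p = 0.19). Pram_29053 minus Pram_47965 was also positive on all 4, with a mean of 0.20 ± 0.14 (SD, n = 4, exact p = 0.13, adjusted p = 0.19), and Pram_30975 minus Pram_29053 had a mean of 0.38 ± 0.53 (SD, n = 4, exact p = 0.50, adjusted p = 0.50). The size of the differences, and for Pram_30975 their sign, thus depended on the processing. Whether the probes share sequence, or the contigs are pieces or copies of the same gene, was not tested.

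The ratio of array 3 depended on the normalization more than that of any other array. Before loess its log2 ratios were 0.79 for Pram_30975, 0.54 for Pram_29053 and 0.78 for Pram_47965, and loess added 1.16, 1.61 and 1.42. On array 4 loess added 0.53 to 0.74 to the 6 probes and on array 1 0.26 to 0.32, while on array 2 it took away 0.21 to 0.28 (shifts of -0.21 to -0.28). When arrays were only centred on their median, array 3 gave 1.26, 1.02 and 1.25 in the same order of contigs. With the scanner's processed signal array 3 gave 2.99, 2.39 and 2.32, and with loess but no background correction 1.52, 1.98 and 2.17. The 3 sense contigs were thus higher with exudate on array 3 under each of these treatments, but by a size that depended on normalization and background handling.

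The lower signal of array 3 was not the same for both strands. Against the mean of the 3 other arrays, sense probes of the contigs were 3.25, 3.66 and 2.95 times lower in control and 11.2, 14 and 8.94 times lower with exudate, in the order Pram_30975, Pram_29053 and Pram_47965. Over the 19338 sense probes in this comparison, fewer than the 30641 tested, the median log2 difference was -0.30 in control and -1.91 with exudate. A share of 1.71%, 1.23% and 2.33% of the sense probes compared fell further than the contigs in control, and 5.46%, 2.47% and 10.1% with exudate. For the antisense probes the log2 difference in control was -0.05, 0 and 1.16, and with exudate -1.72, -0.65 and -0.06. The median over the 12069 antisense probes in this comparison, fewer than the 16084 tested, was 0.24 in control and -0.70 with exudate. Of the antisense probes compared, 27.3%, 30.6% and 95.3% lay below the contigs in control and 13.2%, 52.2% and 76.1% with exudate. These medians and shares hold for the probes compared only. The signals compared were not normalized between dyes. Control was in Cy3 on array 3 but in Cy5 on arrays 1 and 2, and exudate the reverse, so that dye and array cannot be told apart in these differences. On array 3 the exudate channel also had the lowest share of sense probes well above background, 37.5% against 57.2% to 65.9% on the other arrays. The part of this array's quality in the values of the contigs was not tested.

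**Figure D4:**
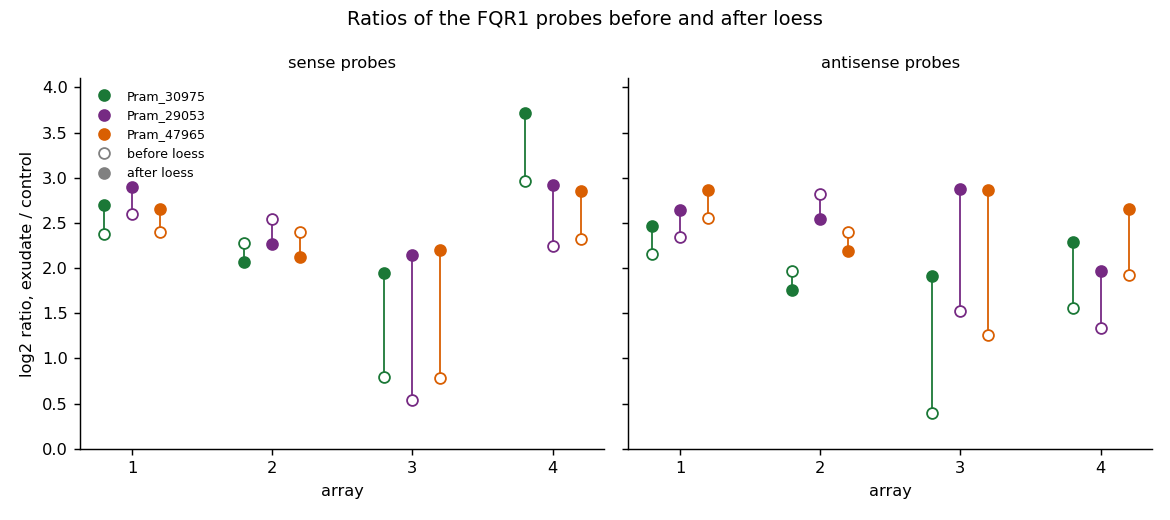
Log2 ratio of exudate over control on each array before loess (open circles) and after it (filled circles), for the sense probes (left) and antisense probes (right) of the 3 contigs. The longest lines are on array 3, where the sense ratios moved from 0.54 to 0.79 up to 1.95 to 2.20.

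The ratios were also averaged by dye orientation, which covers 2 arrays each. After loess, with exudate in Cy3 (arrays 1 and 2) the mean log2 ratio was 2.39 for Pram_30975, 2.58 for Pram_29053 and 2.39 for Pram_47965. With exudate in Cy5 (arrays 3 and 4) it was 2.83, 2.53 and 2.53. Before loess the means were 2.33, 2.57 and 2.40 with exudate in Cy3 and 1.88, 1.40 and 1.55 with exudate in Cy5. The second orientation holds array 3, so that dye and array cannot be told apart here.

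The strands were compared contig by contig. Sense minus antisense log2 ratio was 0.23, 0.32, 0.04 and 1.43 for Pram_30975, a mean of 0.50 ± 0.62 (SD, n = 4). It was 0.26, -0.28, -0.74 and 0.95 for Pram_29053, a mean of 0.05 ± 0.72 (SD, n = 4), and -0.21, -0.07, -0.66 and 0.19 for Pram_47965, a mean of -0.19 ± 0.36 (SD, n = 4). The difference was highest on array 4 in all 3 contigs. It was lowest on array 3 in all 3 as well.

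This order of arrays was shared by the array as a whole. Over the 14015 contigs with both strands tested, the median of sense minus antisense was -0.48, -0.36, -0.95 and 0.26 on arrays 1 to 4, with -0.39 for the mean. A larger difference than that of the contig was found in 2.07% of these contigs for Pram_30975, in 11% for Pram_29053 and in 28.5% for Pram_47965. When loess was run on each strand apart, the mean differences became 1.04, 0.45 and 0.28, so that the strand with the higher ratio changed for Pram_47965.

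High ratios on both strands were then counted, with the lowest ratios of the *FQR1* contigs themselves as cut-offs, so that the counts are a description. Of the 14015 contigs, 39 had a mean sense log2 ratio at or above 2.46, the lowest of the *FQR1* contigs, and 24 of them, the 3 *FQR1* contigs included, also had an antisense ratio at or above 2.11. The *FQR1* contigs pass both cut-offs by construction, and 21 contigs reached both without them. Most contigs with a sense ratio this high thus reached the antisense cut-off too. The antisense cut-off is the ratio of Pram_30975, which was at rank 77 among the 16084 antisense probes tested. The origin of the antisense signal was not tested.

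The contigs nearest to the *FQR1* contigs in ratio were sought by the root mean square distance of their 4 log2 ratios from the mean of the 3 contigs. This distance measures the height of the ratios as well as their order over the arrays. The *FQR1* contigs themselves were at 0.154 (Pram_29053), 0.172 (Pram_47965) and 0.291 (Pram_30975). Each has a share in that mean, which shortens its distance, so that these values are not like those of other contigs. The 3 closest others were Pram_26406 at 0.181, Pram_46309 at 0.214 and Pram_24753 at 0.243, all closer than Pram_30975. Pram_26406 had log2 ratios of 3.02, 2.30, 2.29 and 3.21, and the means of the 3 were 2.70, 2.65 and 2.42. Their antisense probes were high as well, with means of 2.17, 2.37 and 2.67, and no gene name was used for them here. Among contigs named in the hormone gene sheet the nearest were Pram_42581, *CKX4*, a cytokinin oxidase that breaks down cytokinins, at 0.757 and rank 65, and Pram_32122, *TAR2*, a tryptophan aminotransferase of auxin synthesis, at 0.997 and rank 128. The mean log2 ratios of these were 1.83 and 2.00. *CKX4* was lowest on array 3 and highest on array 4, as the mean of the *FQR1* contigs was. *TAR2* was lowest on array 1 and highest on array 3, so that it did not share their order.

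*FQR1* is listed in the study under auxin with 21 other contigs. The study drew up this list from transcripts that responded to exudate at this time point or the later one, so that its direction is not independent evidence. Of the 21 others, 14 were bright enough to be tested, and 9 rose, 2 fell and 3 did not pass, against a background of 5.12% called higher and 12.8% called lower. The median log2 ratio of the 14 was 0.74, against -0.14 over all sense probes tested. Each of the 3 *FQR1* contigs had a higher mean ratio than any of the 21 others.

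Among the 9 that rose, *TAR2* was highest with log2 ratios of 1.23, 1.80, 2.82 and 2.15. *MYB30* (Pram_25764), a transcription factor best known from defence responses, had a mean of 1.53, and *IAA16* (Pram_25081), a repressor of auxin responses of the Aux/IAA family, 1.40. The related *IAA29* (Pram_34452) had a mean of 0.65. The others were *SEU* (Pram_00542, a transcriptional co-regulator) at 0.96, *AAO3* (Pram_29235, the last step of abscisic acid synthesis) at 0.88, *AGD3* (Pram_06969, a GTPase-activating protein, which switches small GTPases of the ARF type off) at 0.84, *CAND1* (Pram_00078, which exchanges subunits of cullin ubiquitin ligases) at 0.76 and *AIR12* (Pram_04752, an auxin-responsive protein) at 0.73.

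The 2 that fell were *JAR1* (Pram_17697, a GH3 enzyme that joins jasmonic acid to isoleucine) at -2.01 and a second *CAND1* contig (Pram_19010) at -1.03. The *CAND1* contig that rose was well above background on 4 arrays with exudate and on 3 in control, and *JAR1* on 4 in control and 3 with exudate, so that each was tested only through its higher group. *IAA29* was well above background on 4 arrays in control and 3 with exudate. With probes required to be well above background in both groups, 10 of the other contigs were tested, of which 7 rose and 1, the second *CAND1* contig, fell. The *FQR1* contigs were well above background in both groups. The 3 that did not pass were *ABCB4*, an auxin transporter, at 0.24, *CUL1*, a cullin, at -0.16 and *ILR1*, which frees auxin from its amino acid conjugates, at 0.23. Without replicate 1, 4 of these other contigs passed, with *TAR2*, *MYB30* and *IAA16* higher and *JAR1* lower.

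**Figure D5:**
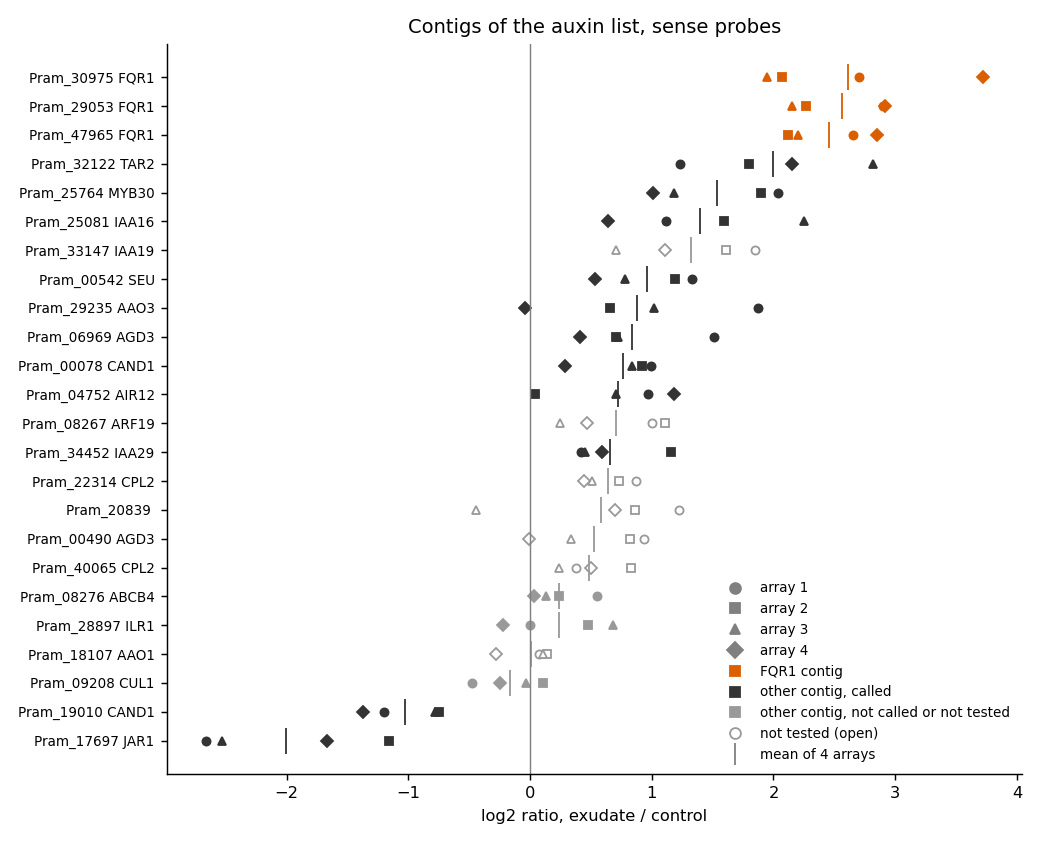
Log2 ratio of exudate over control of the sense probes of the 24 contigs of the auxin list on each array (symbols), with the mean as a vertical tick, ordered by mean. The *FQR1* contigs (orange) have the highest means, 2.46 to 2.61, followed by *TAR2* at 2.00, and open symbols mark contigs too dim to be tested.

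The deposited table of processed values holds the 3 sense contigs too, and gives a different picture by replicate number. Its log2 values for Pram_30975 were 8.84, 8.93, 6.96 and 8.15 in control replicates 1 to 4 and 8.50, 11.65, 11.34 and 10.86 in exudate replicates 1 to 4. Control was lowest in replicate 3 and exudate lowest in replicate 1. Differences taken by replicate number were therefore -0.34 in replicate 1 and 4.38 in replicate 3. They were -0.12 and 4.93 for Pram_29053, and 0.24 and 4.51 for Pram_47965.

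Set against the scanner signals, each control column of that table followed the array of its own number (r of 0.990 to 0.995 across probes), whereas exudate columns 1, 2, 3 and 4 followed arrays 3, 4, 1 and 2 (r of 0.971 to 0.995). Paired by the array each column followed, the differences for Pram_30975 were 2.50, 1.93, 1.55 and 3.50 on arrays 1 to 4. The mean is the same under both pairings, 2.37 for Pram_30975, 2.46 for Pram_29053 and 2.40 for Pram_47965. The SD over 4 values was 1.97, 2.07 and 1.74 by number and 0.85, 0.44 and 0.32 by array. With the pairing by number, limma called 0 of the 3 contigs and 0 of all sense probes at an adjusted p of 0.05, while 3840 probes, the 3 contigs among them, passed an unadjusted p of 0.05. With the pairing by array, limma called 3 of the 3 contigs and 5267 sense probes at an adjusted p of 0.05 with the fold limits.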

How the data were processed

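The authors deposited the Agilent scanner output of each array (Feature Extraction 11.5.1.1), with linear intensity values for each spot and dye (the median, and the background around the spot) that were not normalized between dyes. They also deposited a table of log2 values per sample for the sense probes, whose normalization and scale are not given in the sources used here. Limma is named in the submitters' processing notes. The files of control and exudate samples of 1 replicate number held the same array.

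From the median intensity, background was corrected with normexp (offset 50), each array was loess normalized over all non-control spots (span 0.3, 4 iterations) with limma 3.58.1 in R 4.3.3, ratios were turned to exudate over control, and a probe's spots were averaged after dropping outlier spots. Tested were probes whose spots all passed the scanner software's well-above-background flag on the 4 arrays for control, for exudate or for both. Moderated tests of the 4 ratios were adjusted by Benjamini-Hochberg within each strand, and a call needed an adjusted p of 0.05 with a ratio of at least 1.5 or at most 0.75. Control and exudate samples were paired by their shared array. Deviations of the samples of 1 array correlated at 0.22, 0.24, 0.75 and -0.24, and the highest correlation with a sample of another array was 0.30, 0.66, -0.33 and 0.19. The pairing thus comes from the shared array and not from these correlations. Loess, the moderated test and the calls were tested on simulated log2 ratios. There 200 of 30641 probes had a log2 change of 1, up or down in equal numbers, with independent noise of SD 0.382. Of these 194 were called in the right direction, and 11 unchanged probes were called. The data had more calls, unequal in direction, so that the simulation does not cover that case, nor antisense probes or shared biological replicates. Background correction, the averaging of spots and the filter on dim probes were not part of it either.

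Genes named are the 3 *FQR1* contigs, their antisense partners, the 3 nearest contigs in ratio and the 2 nearest of the hormone gene sheet, and the called contigs of the auxin list. The 3 tested contigs of that list that were not called lie outside this rule and were named after their values were seen. The contigs and lists were chosen with earlier results of these data known. Alternatives were background, normalization, filter, dye term, pairing, thresholds, the deposited values and leaving out each array. Columns of per-sample values not used numbered 0. The number of arrays limits the precision.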

Additional observations from a re-analysis of the deposited data

Results flagged for a closer look

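Sets of 4 values of the *FQR1* probes were searched for a sample far from the others, 21 sets in all, where chance alone marks about 5% of sets. It marked 2. The antisense probe of Pram_30975 had a normalized log2 signal of 7.96 in the control sample of array 4, against 8.23 to 8.25 in the 3 other control samples. The difference Pram_30975 minus Pram_29053 in log2 ratio was 0.80 on array 4, against -0.20 to -0.19 on the others.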

How the results depend on the processing

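The mean sense log2 ratios of the 3 *FQR1* contigs kept their direction and moved by less than 1 SD under all 12 alternatives tried for each. These are not independent, as they include single spots and both pairings of the deposited values, whose means are equal by arithmetic. Paired by number, replicate 1 alone was -0.34 for Pram_30975 and -0.12 for Pram_29053. Antisense ratios of Pram_30975 moved from 2.11 to 1.70 with median centring and 1.69 with loess per strand, and those of Pram_47965 from 2.64 to 2.22 and 2.23. Pram_30975 minus Pram_29053 moved from 0.05 to 0.38 with the processed signal and turned to -0.10 without background correction (-0.19 to 0.14 with 1 array left out). Pram_30975 minus Pram_47965 moved from 0.15 to 0.58 and turned to -0.05 (-0.08 to 0.29). 

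Counts over all probes moved more. With the replicate block removed, so that the samples of an array are not paired, limma called 2359 sense and 510 antisense probes against 5491 and 1370 with it. The 6 *FQR1* probes were called in both, from which nothing is read because they were chosen on this contrast. The sense count was 3548 without background correction, 2266 without the filter on dim probes, 3534 with a dye term, 1086 at an adjusted p of 0.01, 9490 unadjusted, 2854 with the fold limits read as log2, 0 with deposited values paired by number (5267 paired by array), and 677 to 5536 with 1 array left out. The antisense count under the same settings was 696, 525, 831, 291, 3690 and 332, then 240 with median centring, 380 with loess per strand, 3314 with arrays 1 and 3 and arrays 2 and 4 averaged, and 249 to 1706 with 1 array left out. Of the auxin list 14 contigs were called, but 8 with median centring or at an adjusted p of 0.01, 7 with fold limits read as log2, 0 with deposited values paired by number (11 unadjusted), and 7 to 12 with 1 array left out. With 4 arrays on 1 slide and possibly only 2 biological replicates, p-values measure the spread between these arrays.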
